A study of Homo sapiens with 12 samples.

Results

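The genes described here encode translation initiation factors, the proteins that bring a ribosome to the start codon of an mRNA. They were chosen by name, as every gene whose symbol begins with EIF and a digit from 1 to 6 in the annotation of the array, without the EIF2AK kinases and without pseudogenes. The rule itself uses names and no measured value. Of 19775 genes with a probe set that names 1 gene only, 47 were members, of which 45 encode proteins and 2 are non-coding (EIF1B-AS1 and EIF3J-DT). Each gene was read from its brightest such probe set, and 45 of the 47 were bright enough to be tested (43 coding and both non-coding). EIF4A2 and the Y-linked EIF1AY fell below that limit. EIF3CL, EIF4A1 and EIF4EBP3 appeared on the array only through probe sets that name several genes, and no value is given for them.

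Initiation starts when eIF2, a GTP-binding complex, carries the initiator tRNA to the small ribosomal subunit, where eIF1, eIF1A, eIF3 and eIF5 assemble with it. The mRNA is recruited through its cap by eIF4E, the scaffold eIF4G and the helicase eIF4A with its cofactors eIF4B and eIF4H, and the 4E-BP proteins compete with eIF4G for eIF4E. Supply is set at the eIF2 step by the exchange factor eIF2B and at the cap by mTOR signalling. In colorectal tumours the cap-binding arm is known as a point of growth control, and MYC, a Wnt target in the intestine, is known to raise transcription of several of these genes.

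Ls174T is a cell line from a human colorectal carcinoma in which Wnt signalling is constitutively active, and RNA of its derivatives was measured on 12 Affymetrix U133 Plus 2.0 arrays. The Ls174T-pTER-β-catenin cells (the shRNA line) carry a hairpin RNA against β-catenin that doxycycline switches on, and were measured uninduced and after 72 h of doxycycline. The Ls174T-L8 cells (the dnTcf4 line) carry a dominant-negative Tcf4 transgene under doxycycline control, and were measured uninduced and after 24 h of doxycycline. Each of the 4 groups had 3 arrays, and cells given doxycycline without either construct are not analysed here. Line, construct and time of induction change together between the inductions and cannot be told apart. The uninduced arrays are listed with the same times, 72 h in the shRNA line and 24 h in the dnTcf4 line. Line and time therefore cannot be told apart between the uninduced groups either. Whether the 3 arrays of each group stand for separate cultures is not in the labels; p-values therefore measure the spread between these arrays, and the number of arrays limits the precision.

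The median signal over all probe sets was between 12.1 and 15.3 arbitrary units on the 12 arrays, and 6.58% to 9.25% of the values of an array lay under 1. Log2 signals of arrays of the same group correlated at 0.968 to 0.976 across genes. CTNNB1, the gene of β-catenin, changed by -4.61 on the log2 scale with the shRNA and by 0.17 with dnTcf4 (limma, adjusted p = 0.216). Of 8 genes kept as a readout of the pathway, 7 fell and 1 rose with the shRNA, and 5 fell and 1 rose with dnTcf4. MYC fell in both, with a log2 change of -0.99 in each. All 8 epithelial markers passed the brightness limit, and their summed signal was 15222 to 17933 in the uninduced and 31908 to 36414 in the induced shRNA line, and 22172 to 24846 and 32143 to 36725 in the dnTcf4 line. None of 4 leukocyte markers passed it (summed signal at most 64.5 on any array), and those of fibroblasts and endothelium summed to at most 191.3 and 62. Of 6 fibroblast markers 3 passed the limit, and of 3 endothelial markers 1. The fibroblast marker LUM was called higher in both inductions and in the uninduced dnTcf4 line against the uninduced shRNA line. The part of the epithelial shift in the changes below was not tested, and less RNA per cell cannot be told apart from fewer cells of a kind.

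Initiation factor genes were called in both inductions, both ways with the shRNA and almost only downward with dnTcf4. With the shRNA 10 of the 45 tested members rose and 9 fell, in all 42.2%, against 34% of the 12386 genes tested. With dnTcf4 1 member rose and 20 fell, in all 46.7%, against 36% of all genes. The background was 16.6% higher and 17.4% lower with the shRNA, and 16% higher and 20% lower with dnTcf4. With the brightness limit raised to the 75th percentile of probe sets, 10 of 43 members rose and 10 fell with the shRNA. Of all genes above that limit 22% rose and 24.4% fell, so the shRNA counts were near the share of all genes. With dnTcf4 1 member rose and 23 fell there, against 20.7% and 29% of all genes. The threshold for a call was an adjusted p of 0.05 (limma, Benjamini-Hochberg over all genes tested), and every change below is in log2 units of signal, induced minus uninduced, with the standard error of the fit. The median change of the members was 0.00 with the shRNA (0.02 over all genes) and -0.29 with dnTcf4 (-0.05 over all genes), and with dnTcf4 the estimate was below 0 for 39 of the 45. The number of calls moved with the processing, and under centring no call changed direction. When each array was centred on its median 3 of the 45 members rose and 6 fell with the shRNA, against 12% and 16.7% of all genes. With dnTcf4 1 rose and 12 fell, against 13.7% and 16.9% of all genes. Without the variance trend 4 rose and 7 fell with the shRNA (15.5% and 16% of all genes). With quantile normalization 8 rose and 10 fell with the shRNA (16.7% and 17.6% of all genes). The 3 that still rose under centring were EIF3D, EIF3G and EIF3H, and the 6 that still fell were EIF1AX, EIF3B, EIF4E, EIF4EBP1, EIF4EBP2 and EIF4G1. The uninduced and induced arrays did not overlap for 27 of the 45 members with the shRNA and for 26 with dnTcf4. Over all genes such separation was seen for 22.4% upward and 22.2% downward with the shRNA, and for 21.1% and 26% with dnTcf4.

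**Figure D1:**
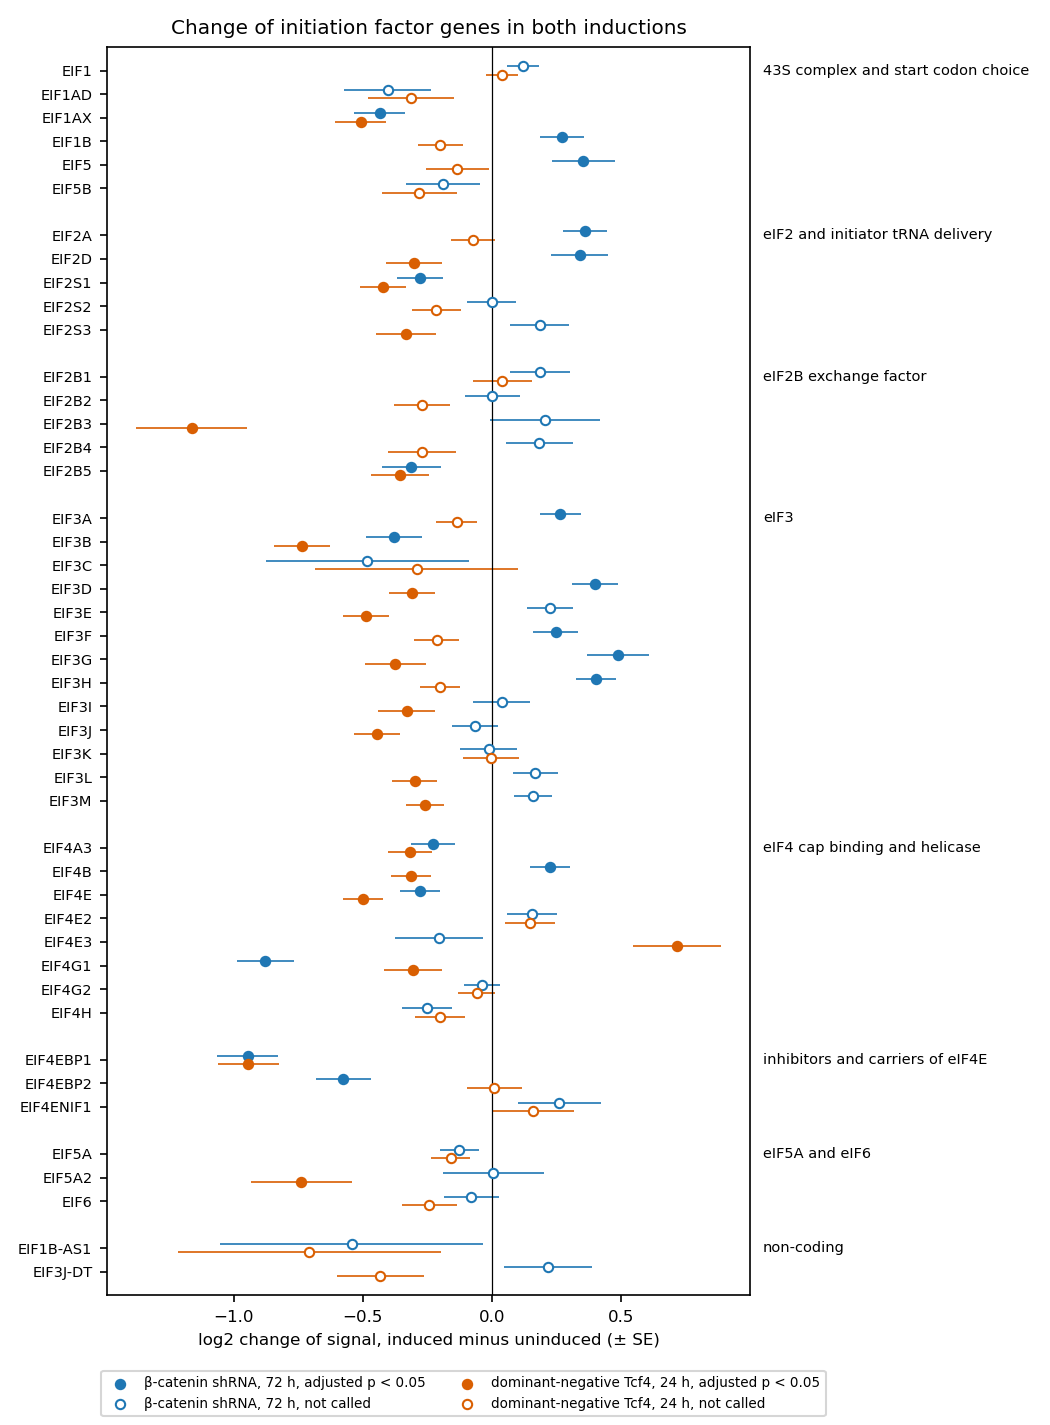
Log2 change of signal (horizontal axis, induced minus uninduced, bars ± SE) of the 45 tested members, 1 row per gene, grouped by role, for the β-catenin shRNA (blue, 72 h) and dominant-negative Tcf4 (orange, 24 h); filled points have an adjusted p under 0.05. All 13 eIF3 points of dominant-negative Tcf4 lie below 0, while 9 of the 13 shRNA points lie above it.

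Among all members, 8 fell in both inductions (17.8%, against 9.68% of all genes): EIF1AX, EIF2B5, EIF2S1, EIF3B, EIF4A3, EIF4E, EIF4EBP1 and EIF4G1. None rose in both, against 8.4% of all genes. EIF2D, EIF3D, EIF3G and EIF4B rose with the shRNA and fell with dnTcf4, which is 8.89% of the members and 0.84% of all genes. With each array centred on its median none of these 4 kept both calls, since EIF3D and EIF3G lost the fall, EIF4B the rise and EIF2D both. No member did the opposite (0.71% of all genes). In all 28 members, or 62.2%, were called in at least 1 induction, against 50.4% of all genes. The inductions share no arrays.

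The cap-binding arm held the largest decreases with the shRNA. EIF4EBP1 encodes 4E-BP1, which holds eIF4E away from eIF4G until mTOR phosphorylates it. Its signal was 1481, 1583 and 1209 on the uninduced and 668, 835 and 710.2 on the induced arrays of the shRNA line. In the dnTcf4 line it was 902, 982 and 903 before and 457, 556 and 442.5 after induction. Every induced array lay below every uninduced array of its line. The change was -0.95 ± 0.12 with the shRNA (1.93-fold lower, adjusted p = 1.05e-05) and -0.94 ± 0.12 with dnTcf4 (1.92-fold, adjusted p = 1.15e-05). The changes were -0.00 apart, with a 95% interval of -0.36 to 0.35, and EIF4EBP1 kept both calls under every alternative processing in which it had a value and without each array. EIF4EBP1 has 1 probe set, so the settings that change the choice of probe sets could not alter its signal.

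EIF4G1 encodes the scaffold that joins the cap-binding protein, the helicase and eIF3. It read 1280.4, 1077 and 1252 on the uninduced and 635, 649 and 674 on the induced arrays of the shRNA line. In the dnTcf4 line it read 1486, 1433 and 1759 before and 1058, 1351 and 1387.5 after induction. No values overlapped between the groups of either line, and the gap was wide with the shRNA and narrow with dnTcf4. The change was -0.88 ± 0.11 with the shRNA (1.84-fold lower, adjusted p = 1.17e-05) and -0.31 ± 0.11 with dnTcf4 (adjusted p = 0.0403), a difference of -0.57 ± 0.16 (adjusted p = 0.018). The call with dnTcf4 ended without uninduced array 1 or 3 or induced array 1 of that line (-0.34 to -0.18, adjusted p 0.0591 to 0.213), and the difference was not called without its uninduced array 2 (-0.51, adjusted p = 0.0537). The second probe set of EIF4G1 changed by -0.88 with the shRNA and by -0.39 with dnTcf4 (limma, adjusted p = 0.192 over all probe sets). Its difference of -0.49 was not called (adjusted p = 0.364), nor was the difference with the mean of both probe sets.

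EIF4E, the cap-binding protein itself, fell in both lines. It read 1064, 1096 and 1113 against 892, 869.5 and 934 with the shRNA, and 1275.5, 1173 and 1243 against 869, 822 and 924 with dnTcf4. These are separate ranges in each line. The change was -0.28 ± 0.08 with the shRNA (adjusted p = 0.00993) and -0.50 ± 0.08 with dnTcf4 (adjusted p = 9.82e-05), and the difference between them was not called (0.22, 95% interval -0.01 to 0.45, adjusted p = 0.198). With the mean of all its probe sets in place of the brightest, neither change of EIF4E was called. EIF4A3, a helicase of the exon junction complex that carries an initiation factor's name, fell by 0.23 and 0.32, and its call with the shRNA ended without any 1 of 9 of the 12 arrays (-0.26 to -0.18, adjusted p 0.0509 to 0.182).

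EIF4EBP2, a further 4E-BP, fell with the shRNA. It read 568, 454 and 568 before and 340, 351 and 369.7 after induction of the shRNA, and 479, 452 and 528.5 before and 457, 508 and 502 after induction of dnTcf4. The groups overlap in the dnTcf4 line and not in the shRNA line. The change was -0.58 ± 0.11 (adjusted p = 0.000463) against 0.01 ± 0.11 (adjusted p = 0.964), and the difference was called at -0.59 ± 0.15 (adjusted p = 0.0128). Its other probe sets above the brightness limit gave -0.16, -0.35 and -0.76 with the shRNA, and with the mean of its probe sets neither its fall nor the difference was called. EIF4ENIF1, which carries eIF4E into the nucleus and to processing bodies, was called in no comparison.

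EIF4E3, a cap-binding relative of eIF4E, was the 1 member that rose with dnTcf4. Its signal was 116, 178 and 116 on the uninduced and 228.5, 205 and 226 on the induced arrays of that line, and 131, 123 and 99.7 against 98.1, 115 and 92.5 in the shRNA line. The rise was 0.72 ± 0.17 (1.64-fold, adjusted p = 0.00337) and the change with the shRNA was -0.21 ± 0.17 (adjusted p = 0.391). The difference of -0.92 ± 0.24 (adjusted p = 0.0138) kept its call under all alternatives tried and without each array. EIF4B, which stimulates the helicase eIF4A, went the other way. It read 3145, 3422 and 3205 against 3884, 3533 and 4000.2 in the shRNA line, and 1653, 1658.5 and 1613 against 1309, 1437 and 1226 in the dnTcf4 line. Its groups did not overlap in either line, and it changed by 0.22 ± 0.08 (adjusted p = 0.033) and by -0.31 ± 0.08 (adjusted p = 0.00421), a difference of 0.54 ± 0.11 (adjusted p = 0.0026). The rise of EIF4B with the shRNA was not called without array 1 or 3 of either group of that line (0.19 to 0.21, adjusted p 0.0723 to 0.121). EIF4E2, which binds the cap without eIF4G, the eIF4G relative EIF4G2, and EIF4H were called in neither induction.

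**Figure D2:**
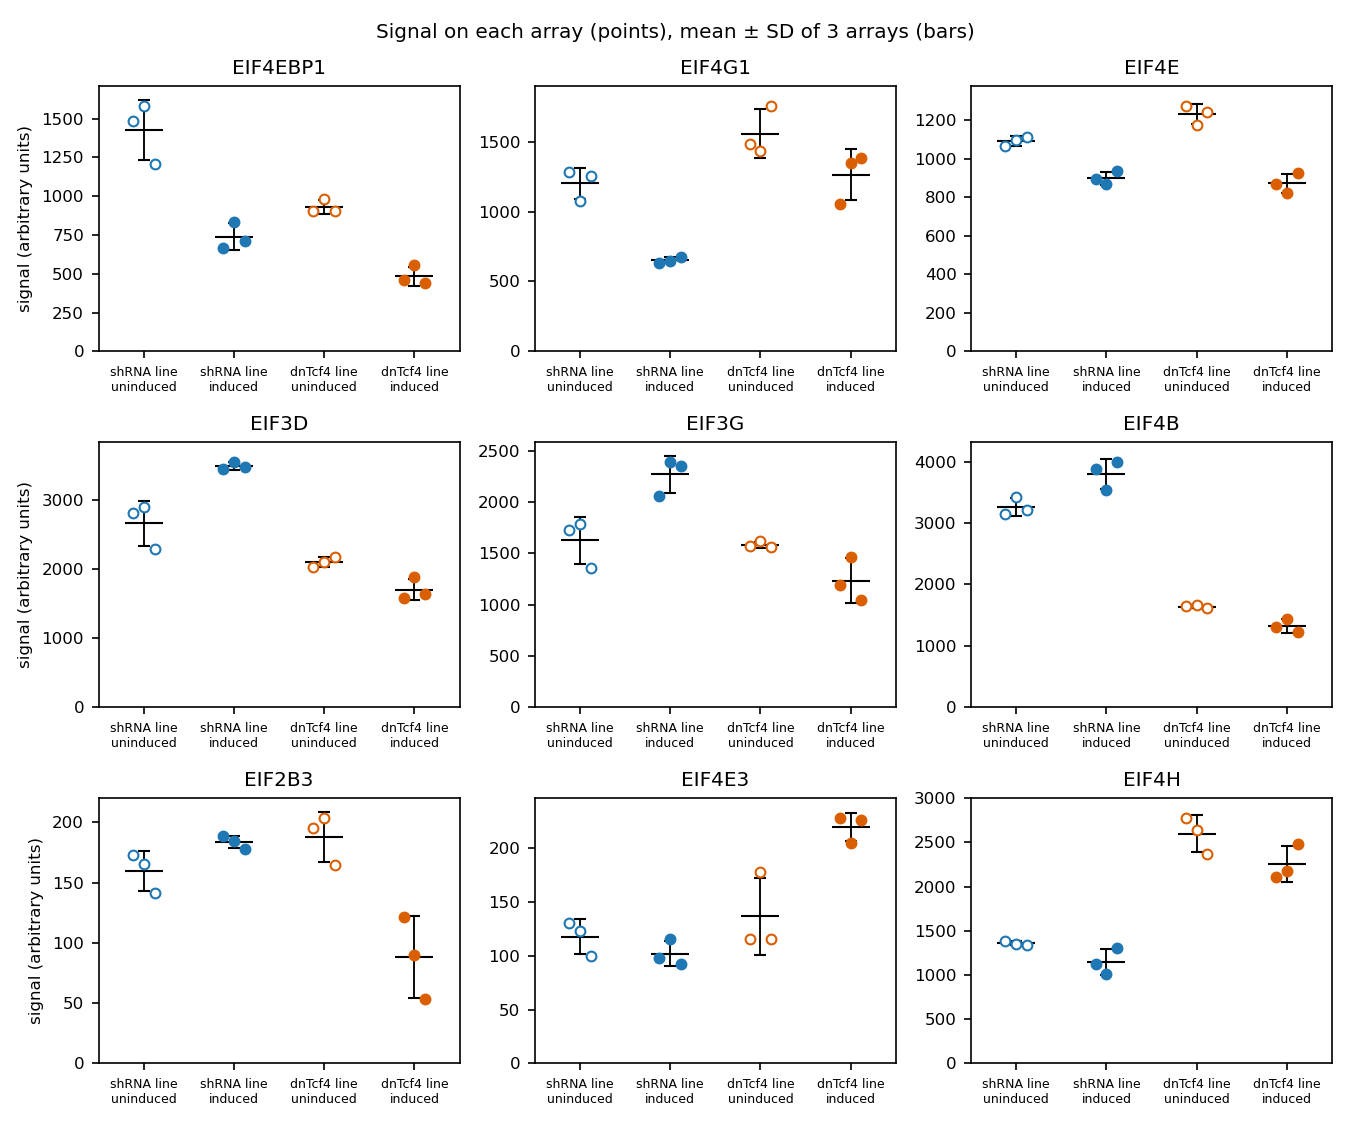
Signal in arbitrary units (vertical axis, from 0, scaled separately for each gene) of 9 members on each of the 12 arrays, with the mean ± SD of 3 arrays as black bars; open points are uninduced and filled points induced arrays, blue the shRNA line and orange the dnTcf4 line. EIF4EBP1 falls in both lines, EIF3D, EIF3G and EIF4B move apart, and EIF4H lies between 2372 and 2780 in the uninduced dnTcf4 line against 1341 to 1383 in the uninduced shRNA line.

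The subunits of eIF3, the large complex that organises the small ribosomal subunit for initiation, differed between the inductions. Of 13 tested subunits 5 rose and 1 fell with the shRNA (median change 0.17), and 8 fell and none rose with dnTcf4 (median -0.30, all 13 estimates below 0, that of EIF3K at -0.00). The difference between the inductions was called for 9 of the 13, each with the higher change under the shRNA (9.03% of all genes, and 17.6% in either direction). Of all genes above the 75th percentile of brightness 13.7% had a called higher difference. With each array centred on its median EIF3D, EIF3E, EIF3G and EIF3H kept that call. With the mean of all probe sets only EIF3D, EIF3G and EIF3L did. These have 1 probe set each, so that setting could not change their signal. EIF3A, EIF3E, EIF3F, EIF3H, EIF3J and EIF3M, which have further probe sets, did not keep the call.

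EIF3G, an RNA-binding subunit, read 1727, 1791.5 and 1363 before and 2064, 2395 and 2351 after induction of the shRNA. In the dnTcf4 line it read 1575, 1619 and 1565 before and 1191, 1470 and 1047 after induction. The induced arrays lay above all uninduced arrays in the first line and below all of them in the second. EIF3G changed by 0.49 ± 0.12 (adjusted p = 0.00423) and -0.37 ± 0.12 (adjusted p = 0.0211), a difference of 0.86 ± 0.17 (1.82-fold, adjusted p = 0.00203). Its call with dnTcf4 ended without uninduced array 1 or 2 or induced array 1 or 3 of that line (-0.38 to -0.26, adjusted p 0.0507 to 0.111), while its rise and the difference kept their calls throughout.

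EIF3D, a subunit that can itself bind the cap of some mRNAs, moved the same way. It read 2811, 2898 and 2297 against 3446, 3559 and 3486 in the shRNA line, and 2037.5, 2108 and 2179 against 1585, 1883 and 1647.5 in the dnTcf4 line. Here too neither pair of groups overlapped. EIF3D changed by 0.40 ± 0.09 (adjusted p = 0.00237) and -0.31 ± 0.09 (adjusted p = 0.0124), and the difference of 0.71 ± 0.13 had an adjusted p of 0.00106. The fall was not called without induced array 1 of the dnTcf4 line (-0.26, adjusted p = 0.0578).

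EIF3H, a structural subunit, read 2144, 2211 and 2238 against 3026, 2835 and 2855.5 with the shRNA, and 1612, 1814 and 1617 against 1505, 1547 and 1338 with dnTcf4. Its ranges are apart in both lines. It changed by 0.40 ± 0.08 (adjusted p = 0.000622) and -0.20 ± 0.08 (adjusted p = 0.0527), and the difference of 0.60 ± 0.11 was called (adjusted p = 0.00113). EIF3E read 3898, 3954 and 4207 against 5319.6, 4245 and 4568 with the shRNA, and 3384, 3339 and 3463 against 2756, 2263 and 2273 with dnTcf4. Its change of 0.22 with the shRNA missed the threshold (adjusted p = 0.066), the fall of 0.49 with dnTcf4 passed it (adjusted p = 0.000427), and so did the difference of 0.71 ± 0.13 (adjusted p = 0.00101). A second, dim probe set of EIF3E gave a difference of -0.22 that was not called.

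EIF3B, the scaffold that docks eIF3 on the ribosome, was the 1 subunit that fell in both lines. It read 1981, 2115 and 1861 against 1395, 1683 and 1510.4 with the shRNA, and 2365, 2528 and 2408.5 against 1436, 1754 and 1241 with dnTcf4. Both pairs of groups are apart. The change was -0.38 ± 0.11 (adjusted p = 0.0116) and -0.73 ± 0.11 (1.66-fold lower, adjusted p = 5.53e-05). With the shRNA the call was lost without uninduced array 2 or induced array 1 of that line (-0.33 to -0.31, adjusted p 0.0553 to 0.0583). The difference of 0.36 was not called (adjusted p = 0.124), although the next 2 probe sets of EIF3B by brightness gave a difference of 0.48 and 0.76 (adjusted p 0.0354 and 0.00473 over all probe sets).

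Of the other eIF3 subunits, EIF3A, the largest subunit, rose by 0.26 and EIF3F by 0.25 with the shRNA (adjusted p 0.017 and 0.038), and each of these calls was lost without 1 of several arrays of that line (EIF3A, 3 arrays, 0.22 to 0.23, adjusted p 0.0619 to 0.0754; EIF3F, 5 arrays, 0.19 to 0.27, adjusted p 0.0532 to 0.137). A dimmer probe set of EIF3A changed by -0.24 with the shRNA. With dnTcf4, EIF3J fell by 0.44 (adjusted p = 0.000883), EIF3I by 0.33, EIF3L by 0.30 and EIF3M by 0.26. Of these the calls of EIF3I (4 arrays), EIF3L (2 arrays) and EIF3M (1 array) were each lost without an array of the dnTcf4 line (-0.33 to -0.27, -0.27 to -0.21, and -0.21). The estimates of EIF3K were -0.01 and -0.00, and neither was called. EIF3C was read from a dim probe set (12 to 27.1 on the 12 arrays) and has a near-identical copy, EIF3CL, so its values are uncertain.

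Genes of the eIF2 step followed no single direction. EIF2B3 encodes the γ subunit of eIF2B, part of its catalytic subcomplex. It read 173, 166 and 141 before and 189, 184.5 and 178 after induction of the shRNA, and 195, 204 and 165 before and 121.5, 90.3 and 53.2 after induction of dnTcf4. The induced dnTcf4 arrays were all below the uninduced ones. Its change of -1.16 ± 0.21 with dnTcf4 (2.24-fold lower, adjusted p = 0.000437) was the largest of any member, and with the shRNA it changed by 0.20 ± 0.21 (adjusted p = 0.512). The difference was 1.37 ± 0.30 (2.58-fold, adjusted p = 0.00494) and ranged from 1.04 to 1.64 as each array was left out. EIF2B5, the catalytic subunit, fell by 0.31 and 0.36, but its call with the shRNA ended without any 1 of the 6 arrays of that line or uninduced array 1 of the other (-0.34 to -0.27, adjusted p 0.0539 to 0.141). With dnTcf4 its call ended without uninduced array 2 or induced array 1 or 3 (-0.33 to -0.25, adjusted p 0.0568 to 0.124). EIF2B1, EIF2B2 and EIF2B4 were called in neither induction.

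EIF2S1, the eIF2 subunit whose phosphorylation slows initiation, read 1213, 1314 and 1388 against 999, 1115 and 1113 with the shRNA, and 1917.5, 1910.4 and 1747 against 1489.6, 1437 and 1241 with dnTcf4. The groups were apart in both lines. It fell by 0.28 (adjusted p = 0.0223) and by 0.42 (adjusted p = 0.00132), and the call with the shRNA was lost without uninduced array 2 or 3 or induced array 1 (-0.27 to -0.23, adjusted p 0.0635 to 0.0971). EIF2S3, the GTP-binding subunit, fell by 0.33 with dnTcf4 (adjusted p = 0.0323), a call lost without 5 of the 6 arrays of that line in turn (-0.36 to -0.25, adjusted p 0.0572 to 0.139). EIF2S2 was not called.

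EIF2A and EIF2D can deliver a tRNA to the ribosome without eIF2, and both rose with the shRNA. EIF2A read 2271, 2250.5 and 2181 before and 3000, 2784 and 2816 after induction of the shRNA, and 1649.5, 1648 and 1345 before and 1482, 1553 and 1364 after induction of dnTcf4. The rise of 0.36 ± 0.09 (adjusted p = 0.00359) was called; in the dnTcf4 line, where the groups overlap, the estimate was -0.07 (adjusted p = 0.559). EIF2D read 796.5, 856.5 and 712 against 949.9, 1047 and 990 in the shRNA line, and 384, 464 and 454 against 334, 401 and 322 in the dnTcf4 line. Its changes of 0.34 and -0.30 (adjusted p 0.0241 and 0.0408) were each lost when single arrays were left out (4 arrays, 0.27 to 0.35, adjusted p 0.0518 to 0.0954; 6 arrays, -0.30 to -0.24, adjusted p 0.0504 to 0.147). The difference of 0.64 ± 0.16 (adjusted p = 0.00874) was not.

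Factors of start codon choice and subunit joining also divided. EIF1AX, which keeps the scanning ribosome open, read 847, 913 and 996.5 against 753, 621 and 666 with the shRNA, and 1250.5, 1262 and 1332 against 981, 811.5 and 915.5 with dnTcf4. All induced values lie below the uninduced ones of their line. It fell by 0.44 ± 0.10 (adjusted p = 0.00229) and by 0.51 ± 0.10 (adjusted p = 0.000623). With the mean of all its probe sets EIF1AX was not called with the shRNA (-0.19, adjusted p = 0.273), and its 2 dimmest probe sets gave -0.05 and 0.07 there. EIF1B, a near copy of eIF1, rose by 0.27 with the shRNA (adjusted p = 0.0221), a call lost without array 2 of either group (0.21 to 0.24, adjusted p 0.0899 to 0.0993). EIF5, which triggers GTP hydrolysis by eIF2, read 1433, 1615 and 1246 before and 2063, 1765 and 1652.5 after induction of the shRNA. Its rise of 0.35 (adjusted p = 0.0335) was lost without uninduced array 1 or 3 or induced array 1 or 2 of that line (0.26 to 0.38, adjusted p 0.0519 to 0.151). EIF1, EIF1AD and EIF5B were called in neither induction.

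EIF5A2, a second gene for eIF5A, the factor that helps ribosomes past difficult peptide bonds, fell with dnTcf4. It read 125, 111 and 106 on the uninduced and 66.4, 68.7 and 69.5 on the induced arrays of that line, and 158, 144 and 217 against 202, 120.1 and 206 in the shRNA line. The fall was 0.74 ± 0.20 (adjusted p = 0.00703), and the change with the shRNA was 0.00 ± 0.20. Its second probe set fell by a like amount with dnTcf4 (-0.72) but rose by 0.90 with the shRNA (adjusted p = 0.00147 over all probe sets). EIF5A, and EIF6, which keeps the large ribosomal subunit from joining early, were called in neither induction. For EIF5A this rests on the brightest probe set. Its next by brightness fell by 0.32 with dnTcf4 (adjusted p = 0.0419 over all probe sets), and another fell by 0.49 with the shRNA and by 0.31 with dnTcf4 (adjusted p 0.00237 and 0.0486). Of the non-coding members, EIF1B-AS1 (5.6 to 29.4 on the 12 arrays) and EIF3J-DT (76.2 to 141) were not called in any comparison.

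The 17 members called in neither induction were EIF1B-AS1, EIF3J-DT and 15 coding genes named above, whose estimates ranged from -0.48 to 0.26 with the shRNA and from -0.31 to 0.16 with dnTcf4.

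The difference between the inductions, the change with the shRNA minus the change with dnTcf4, was called for 18 members, or 40%, against 17.6% of all genes. It was higher for 15 members and lower for 3, against 9.03% and 8.61% of all genes, and its median was 0.22 (0.04 over all genes). With the brightness limit at the 75th percentile the difference was higher for 16 of 43 members and lower for 3, against 13.7% and 12.6% of all genes. The 3 lower ones were EIF4E3, EIF4EBP2 and EIF4G1, all of the cap-binding arm. The 15 higher ones were EIF2B3, EIF3G, EIF3E, EIF3D, EIF2D, EIF3H, EIF4B, EIF2S3, EIF1B, EIF3L, EIF3F, EIF2A, EIF3M, EIF3A and EIF3J, of which 9 are eIF3 subunits. With each array centred on its median 6 were higher (EIF2B3, EIF3D, EIF3E, EIF3G, EIF3H and EIF4B) and 3 lower, against 5.21% and 6.88% of all genes. Calls of EIF2S3 and EIF3J were lost without any 1 of 9 and 10 arrays (0.42 to 0.54 and 0.34 to 0.41), and those of EIF2A and EIF3A without any 1 of 3 (0.38 to 0.40 and 0.36 to 0.38).

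**Figure D3:**
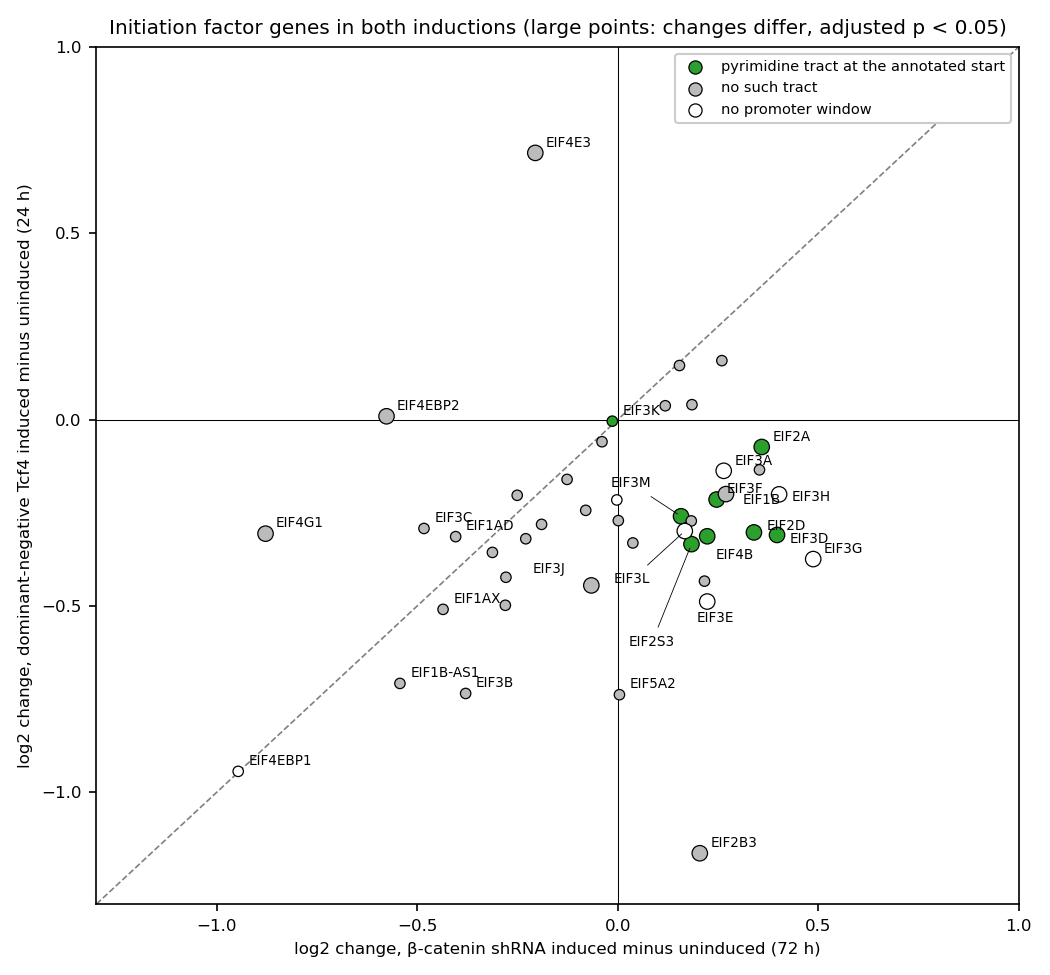
Log2 change with the β-catenin shRNA (horizontal) against log2 change with dominant-negative Tcf4 (vertical) of the 45 tested members; the dashed line marks equal changes, large points have a called difference, and colour shows whether the annotated start site opens with a pyrimidine tract. The 4 members EIF2D, EIF3D, EIF3G and EIF4B sit in the lower right with calls on both axes, and EIF4EBP1 sits on the line at -0.95 and -0.94.

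The start sites of these genes were read because many genes of the translation machinery begin with a pyrimidine tract, through which mTOR and LARP1 control their translation, and because 15 of the 18 members with a called difference differed in 1 direction. Promoter windows of 300 bases (250 before and 50 after the annotated start; RefSeq, GRCh38.p14) were found for 38 of the 45 tested members. A tract was counted where the first transcribed base is C and at least 4 further C or T follow. It was present in 8 of the 38 (21.1%), in 4.07% of all 35116 windows and in 7.16% of tested genes with a window. The 8 are shown with 20 bases before and 20 from the annotated start, the tract in capitals.

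EIF2A (chr3:150546767-150546806, plus strand): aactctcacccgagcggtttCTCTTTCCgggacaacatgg
EIF2D (chr1:206612446-206612485, minus strand): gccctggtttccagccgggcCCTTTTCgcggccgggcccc
EIF2S3 (chrX:24054936-24054975, plus strand): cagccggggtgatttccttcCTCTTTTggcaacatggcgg
EIF3D (chr22:36529147-36529186, minus strand): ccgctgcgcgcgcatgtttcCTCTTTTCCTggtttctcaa
EIF3F (chr11:7987317-7987356, plus strand): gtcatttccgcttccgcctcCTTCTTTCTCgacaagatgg
EIF3K (chr19:38619168-38619207, plus strand): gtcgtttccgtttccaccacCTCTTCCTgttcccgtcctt
EIF3M (chr11:32583811-32583850, plus strand): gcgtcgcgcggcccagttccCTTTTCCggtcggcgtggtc
EIF4B (chr12:53006436-53006475, plus strand): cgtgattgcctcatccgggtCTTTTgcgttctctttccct

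Of the 8 members with a tract 7, all but EIF3K, had a called difference with the higher change under the shRNA. None had a called lower one, and the estimate of EIF3K was -0.01. Of the 30 members without a tract the difference was called higher for 3 and lower for 3. The median difference was above 0 in both sets, at 0.49 with a tract and 0.12 without. With the shRNA 5 of the 8 rose and none fell, while of the 30 others 2 rose and 8 fell. With dnTcf4 5 of the 8 fell, against 11 of the 30. The lines already differed at these genes before induction, on the arrays that both inductions are measured from: 5 of the 8 were lower and none higher in the uninduced dnTcf4 line, against 2 lower and 10 higher of the 30 others. Among all 722 tested genes with a tract 15.7% had a called higher and 8.03% a called lower difference, and among the 9366 without one 8.62% and 8.7%. With the shRNA 20.9% of those 722 genes rose and 15.4% fell (16.6% and 18.1% without a tract), and with dnTcf4 14.3% rose and 26.0% fell (20% of all genes tested fell). Between the uninduced lines 34.8% of them were lower in the dnTcf4 line, against 19.5% of genes without a tract. With centred arrays EIF3D and EIF4B alone among the 7 kept a called difference. These counts describe letters at annotated starts, and the start used in these cells was not measured here. EIF3G, EIF3H, EIF3E, EIF3A and EIF3L, which also had a called difference, have no window in the table used.

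The E-box CACGTG, the letters that MYC and related factors bind, was looked for in the same windows because MYC fell in both lines. Being its own reverse complement, it reads the same on both strands. It was found in 11 of the 38 (28.9%), in 7.26% of all windows and in 12.8% of tested genes with a window. The members are EIF1B, EIF1B-AS1, EIF2B3, EIF3F, EIF3K, EIF4A3, EIF4B, EIF4E, EIF4G1, EIF4H and EIF5A2. With dnTcf4 6 of the 11 fell, against 10 of the 27 without the letters, and among all tested genes 28.8% with and 19.2% without them fell. With the shRNA 3 of the 11 rose (EIF1B, EIF3F and EIF4B) and 3 fell (EIF4A3, EIF4E and EIF4G1). Of the 27 without the letters 4 rose and 5 fell. Among all tested genes with them 15.5% rose and 19.1% fell with the shRNA, against 17.1% and 17.7% without. Whether MYC acts through these letters was not tested. Only the 3 members that fell in both lines and hold the letters are shown, in the direction of the gene, with the E-box in capitals.

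EIF4E (chr4:98929186-98929219, minus strand): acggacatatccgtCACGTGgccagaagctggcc
EIF4E (chr4:98929339-98929372, minus strand): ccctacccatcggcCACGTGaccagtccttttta
EIF4G1 (chr3:184314448-184314481, plus strand): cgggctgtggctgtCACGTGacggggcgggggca
EIF4G1 (chr3:184314525-184314558, plus strand): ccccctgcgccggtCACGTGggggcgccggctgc
EIF4A3 (chr17:80147230-80147263, minus strand): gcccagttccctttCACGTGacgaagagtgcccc

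The letters CTTTGAT or CTTTGAA, to which TCF proteins bind, were found on either strand in 3 of the 38 windows (7.89%), those of EIF2B4, EIF2S1 and EIF4G1, against 6.86% of all windows and 6.07% of tested genes with one. Of these EIF2S1 and EIF4G1 fell in both inductions, and EIF2B4 was called in neither. Among all tested genes with the letters 16.2% fell with the shRNA, against 17.4% of all genes tested. With dnTcf4 19.3% of them fell, against 20% of all genes tested. Whether TCF proteins act through these letters was not tested. Only EIF4G1 is shown, picked as the member with the second largest fall under the shRNA. It holds the letters on the opposite strand, in capitals here.

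EIF4G1 (chr3:184314407-184314441, plus strand): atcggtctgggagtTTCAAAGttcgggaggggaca

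Before any induction the lines already differed in these genes, and the uninduced arrays used here are those of the inductions. Of the 45 members 10 were higher and 11 lower in the uninduced dnTcf4 line than in the uninduced shRNA line, in all 46.7%, against 37.3% of all genes (16.9% higher and 20.5% lower). With the brightness limit at the 75th percentile 10 of 43 members were higher and 12 lower, against 22.4% and 24.1% of all genes. The lines did not overlap for 25 of the 45 members, where 22.9% of all genes were so separated upward and 27% downward. The median difference was -0.03, as over all genes. Centring each array on its median moved the median of all genes by 0.11 in this comparison. The median was then 0.09 for the members and 0.09 for all genes, with 11 members higher and 7 lower. Of all genes 19.6% were then higher and 13.5% lower.

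EIF4B was the member lowest in the dnTcf4 line by difference, with 1613 to 1658.5 against 3145 to 3422 on the uninduced arrays, a difference of -0.99 ± 0.08 (1.98-fold, adjusted p = 4.63e-08). EIF4H, the other cofactor of the helicase, differed the opposite way, with 2780, 2643.5 and 2372 in the dnTcf4 line against 1383, 1349 and 1341 in the shRNA line. Its difference was 0.93 ± 0.10 (1.91-fold, adjusted p = 1.31e-06). The groups of both genes are far apart, and both calls held under every alternative in which the gene had a value and without each array. EIF4H has 1 probe set, so the mean of all probe sets could not change its signal. EIF2D was lower by 0.86 ± 0.11 (1.82-fold, adjusted p = 1.2e-05) and EIF2A by 0.54 ± 0.09 (adjusted p = 0.000119).

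EIF3L, a peripheral eIF3 subunit, read 7357, 7225 and 6781 in the uninduced shRNA line and 4462, 4653 and 4271 in the uninduced dnTcf4 line, a difference of -0.67 ± 0.09 (adjusted p = 1.34e-05). EIF3F, another eIF3 subunit, read 5539, 5251 and 4826 against 3453, 3543 and 3179, a difference of -0.62 ± 0.09 (adjusted p = 3.51e-05). Neither pair of groups overlaps. A dim second probe set of EIF3F gave 0.47, so its direction rests on the brightest one. EIF4EBP1 was lower by 0.61 ± 0.12 in the dnTcf4 line (adjusted p = 0.00066).

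EIF5 was higher in the uninduced dnTcf4 line, at 2308, 2283 and 2272, by 0.68 ± 0.12 (1.61-fold, adjusted p = 0.000316). EIF2S1 was higher by 0.51 ± 0.09 (adjusted p = 0.000258) and EIF1AX by 0.48 ± 0.10 (adjusted p = 0.000961). EIF5B, the factor that joins the ribosomal subunits, read 526, 473 and 510.4 against 345, 407 and 341, a difference of 0.47 ± 0.14 (adjusted p = 0.0172). Its call ended without uninduced shRNA array 1 or 3 or uninduced dnTcf4 array 1 (0.42 to 0.44, adjusted p 0.0545 to 0.061). Smaller called differences were 0.43 for EIF4E2, 0.37 for EIF4G1, 0.36 for EIF3J, 0.32 for EIF4A3 and 0.29 for EIF3B, and -0.58 for EIF5A2, -0.39 for EIF3H, -0.33 for EIF3D, -0.27 for EIF1 and -0.24 for EIF3E. The brightest probe set of EIF1 was lower in the dnTcf4 line and the next 3 by brightness read 0.21 to 0.22 higher, so no direction is given for EIF1. The second probe set of EIF4G1 gave -0.13, and EIF4G1 was not called here with the mean of its probe sets. Further probe sets also passed over all probe sets for members not called here, at -0.59 for EIF2S3, 0.61 for EIF3A and 0.47 for EIF4EBP2. Without single uninduced arrays the calls of EIF3B (0.25 to 0.32), EIF3D (-0.27), EIF3E (-0.26 to -0.21), EIF4G1 (0.28 to 0.29) and EIF5A2 (-0.56 to -0.41) were lost.

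**Figure D4:**
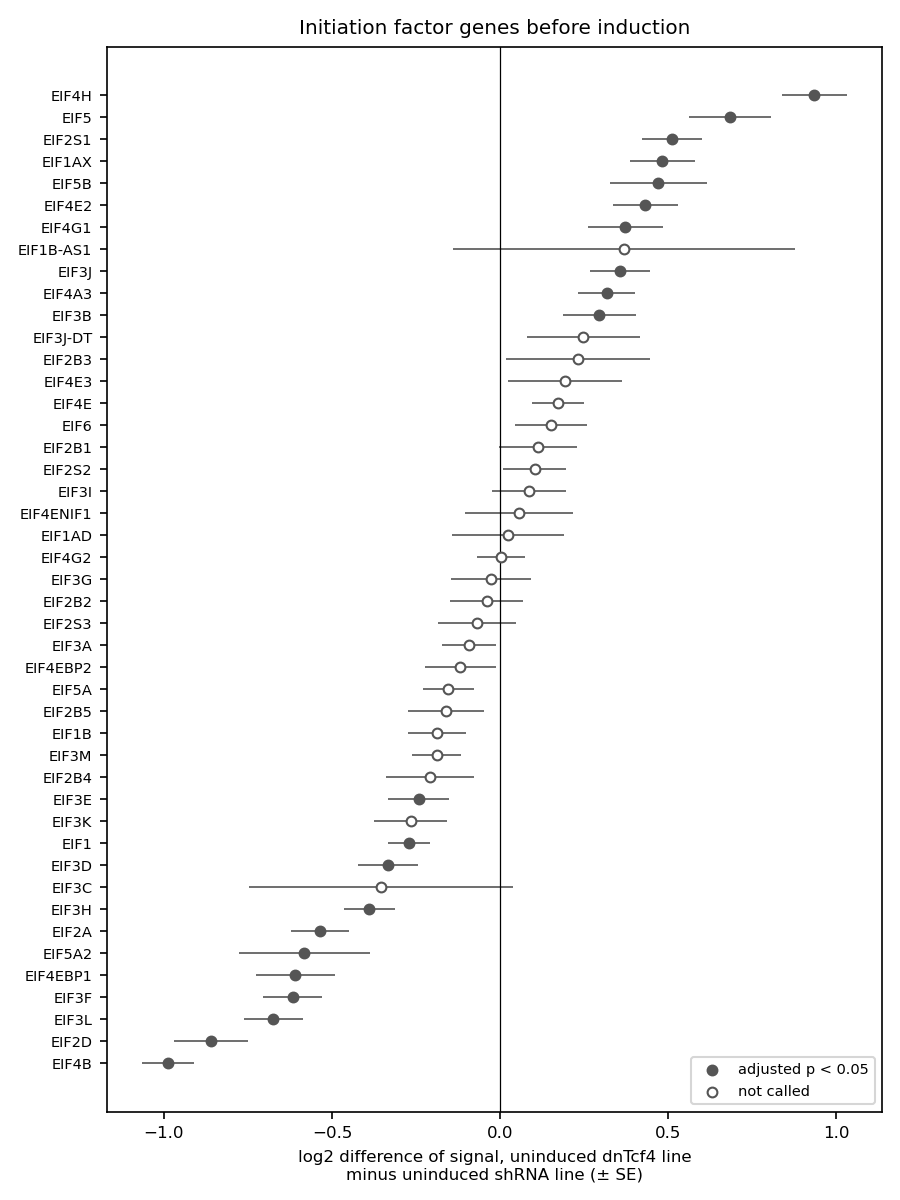
Log2 difference of signal (horizontal axis, uninduced dnTcf4 line minus uninduced shRNA line, bars ± SE) of the 45 tested members, 1 row per gene in order of the difference; filled points have an adjusted p under 0.05. EIF4H lies at 0.93 and EIF4B, which serves the same helicase, at -0.99.

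Within the group, the arrays separated first by line, with which the listed time (72 h or 24 h) also changes. In a principal component analysis of the log2 signals of the 45 members the first component held 59.9% of the variance and the second 19.5%. All 6 arrays of the shRNA line lay below 0 on the first (-2.44 to -1.07) and all 6 of the dnTcf4 line above it (0.99 to 2.86), with the induced arrays farther out in both. The second component was above 0 on all 6 induced and below 0 on all 6 uninduced arrays.

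Further probe sets give a check on the brightest one that the choice of members did not use. Above the brightness limit, 23 of 26 further probe sets of called members changed in the same direction with the shRNA and 23 of 26 with dnTcf4. For the difference of the inductions it was 14 of 19, and for the uninduced lines 23 of 33. The same share over all called genes was not computed, so these counts have no background to be set against.

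Genes that act on the initiation factors were read from lists of the same pathway, to be set against the 34% and 36% of all genes called with the shRNA and with dnTcf4. Of 12 genes of the eIF2 kinases and their phosphatase 4 rose and 2 fell with the shRNA, and 4 rose and none fell with dnTcf4, which is 50% and 33.3% called. EIF2AK3, the kinase PERK that phosphorylates eIF2 under endoplasmic reticulum stress, rose by 0.60 ± 0.11 and 1.42 ± 0.11, a difference of -0.83 (adjusted p = 0.00143). PPP1R15A and PPP1R15B, the regulatory subunits that bring the phosphatase back to eIF2, rose by 0.74 and 0.52 with the shRNA and by 0.58 and 0.33 with dnTcf4. DNAJC3, a PERK inhibitor, rose by 0.32 and 0.66. EIF2AK4, the amino acid sensor GCN2, and ATF4, a transcription factor translated when eIF2 is phosphorylated, fell with the shRNA by 0.48 and 0.35.

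Of 14 tested genes of the mTOR, S6 kinase and MNK arm 2 rose and 1 fell with the shRNA, and 2 rose and 3 fell with dnTcf4. The shares called, 21.4% and 35.7%, were at or below those of all genes. MKNK2, a kinase that phosphorylates eIF4E, rose by 1.07 ± 0.11 and 0.40 ± 0.11, and MKNK1 by 0.58 with the shRNA. AKT1S1, an inhibitory mTOR partner, fell by 0.70 and 0.66. DDIT4, which restrains mTOR under stress, rose by 2.14 ± 0.14 with dnTcf4 and changed by -0.06 ± 0.14 with the shRNA (adjusted p = 0.772). Its difference between the uninduced lines was also called, at -2.26, lower in the dnTcf4 line.

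Of 14 genes of the mRNA loop, scanning and recycling 1 rose and 3 fell with the shRNA, and 1 rose and 5 fell with dnTcf4 (28.6% and 42.9%). ABCE1, which splits ribosomes for reuse, fell by 0.45 and 0.84, and DENR, which clears the last tRNA, by 0.44 and 0.38. PABPC1, which joins the poly(A) tail to eIF4G, fell by 0.37 with dnTcf4 and changed by 0.18 with the shRNA (adjusted p = 0.131), a called difference of 0.55. Of 9 genes of elongation, hypusination and release 2 rose and 1 fell with the shRNA, and 2 fell with dnTcf4 (33.3% and 22.2%). DHPS, the enzyme that starts the hypusine modification of eIF5A, rose by 0.57 ± 0.12 with the shRNA and fell by 0.57 ± 0.12 with dnTcf4, a difference of 1.14 (adjusted p = 0.000241). EEF2K, which slows elongation, fell by 0.93 with the shRNA and changed by 0.01 with dnTcf4. Of 8 mitochondrial factors 1 fell with the shRNA and 4 with dnTcf4 (12.5% and 50%). TSFM, an elongation factor among them, fell in both lines, by 0.32 with the shRNA.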

How the data were processed

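Signals of 12 arrays (4 groups of 3) were taken from the deposited table, which holds 1 intensity per probe set and array on a linear scale; MAS5 and GCOS were used per the submitters' processing notes, whose versions were not given in the sources used here. The middle 96% of the 54675 probe sets averaged 100.0 on each of the 12, as the authors left them. The genome build of the annotation is not given.

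Of the non-control probe sets 41091 named 1 gene and 1801 several, and 11783 are unnamed here. Values under 1 were set to 1 before log2. The brightest probe set by mean log2 stood for a gene, and 12386 genes at or above the median of all probe sets (3.35, a signal of 10.2) were tested. R 4.3.3 and limma 3.58.1 served to fit 1 mean per group, with a variance trend and 8 degrees of freedom left, and 4 contrasts were read, with two-sided p-values and Benjamini-Hochberg adjustment. The steps were tested on simulated data. The members and gene lists were chosen with earlier results of these data known.

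Members called were named by the size of their change, up to 10 per direction, and up to 5 without overlap were given on every array; further called members and those not called were named to account for the group. Alternatives changed scaling, offset (3.5), filter, probe set choice, variance trend, weights and samples.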

Additional observations from a re-analysis of the deposited data

Results flagged for a closer look

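The change with the shRNA differed from the change with dnTcf4, by a test of the difference itself, for 18 members (limma, adjusted p under 0.05). It was larger with the shRNA for EIF2B3 (1.37), EIF3G (0.86), EIF3E (0.71), EIF3D (0.71), EIF2D (0.64), EIF3H (0.60), EIF4B (0.54), EIF2S3 (0.52), EIF1B (0.47), EIF3L (0.47), EIF3F (0.46), EIF2A (0.43), EIF3M (0.42), EIF3A (0.40) and EIF3J (0.38). It was smaller for EIF4E3 (-0.92), EIF4EBP2 (-0.59) and EIF4G1 (-0.57). Of these, EIF2B3, EIF3D, EIF3G and EIF4E3 kept the call under every alternative tried and without each array. EIF2B3, EIF3D and EIF3G have 1 probe set each, so the settings that change the choice of probe sets could not alter their signal. EIF4E3 has 4.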

How the results depend on the processing

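Of 19 calls with the shRNA 5 were kept under every alternative and without each array (EIF3D, EIF3G and EIF3H higher, EIF4EBP1 and EIF4G1 lower). For EIF3D, EIF3G and EIF4EBP1, with 1 probe set each, the choice of probe sets could not change the signal. It was 7 of 21 with dnTcf4, 4 of 18 for the difference and 11 of 21 for the uninduced lines. Over all 79 calls, centring each array on its median lost 31, the mean of all probe sets lost 35 and no variance trend lost 24.

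Centring gave 3 members higher with the shRNA (median change -0.046), 12 lower with dnTcf4, 6 with a higher difference, and 7 lower in the uninduced dnTcf4 line (median 0.087). The shares of all genes were 12%, 16.9%, 5.21% and 13.5%, in that order. The mean of all probe sets gave 5 higher and 4 lower with the shRNA, 7 higher and 1 lower for the difference, and 6 lower between the uninduced lines (median 0.123). The shares of all genes were 12.5%, 13.6%, 5.47%, 5.89% and 15.1%, in that order. Leaving out probe sets ending in _x_at or _s_at, shared between transcripts, gave 4 lower with the shRNA, 1 lower for the difference, and 6 lower between the uninduced lines (median 0.113). The shares of all genes were 15.7%, 7.67% and 17.9%, with 37 members tested. No variance trend gave 4 higher with the shRNA and 9 for the difference (15.5% and 7.12% of all genes). The cause was not tested.

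Directions turned without those probe sets for EIF3A (-0.24 with the shRNA, -0.05 for the difference), EIF3E (-0.22 for the difference, 0.11 between the uninduced lines), and between the uninduced lines for EIF1 (1.18), EIF3F (0.47) and EIF5A2 (0.03). With the mean of probe sets they turned there for EIF1 (0.01), EIF3F (0.18) and EIF3H (0.18), and with quantile normalization for EIF1 (0.03).

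Leaving out 1 array at a time gave 6 to 11 higher and 5 to 9 lower with the shRNA (median 0.004 to 0.097) and 1 higher and 14 to 26 lower with dnTcf4 (-0.358 to -0.242). It gave 11 to 18 higher and 2 to 3 lower for the difference (0.203 to 0.338), and 8 to 10 higher and 9 to 12 lower between the uninduced lines (-0.064 to 0.022). The higher calls with the shRNA fell to 6 without uninduced array 1 or 3 or induced array 1 or 2 of that line, and the lower ones to 5 without uninduced array 2 or induced array 1.

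With the replicate number as a block, 9 members were higher and 7 lower with the shRNA, 1 higher and 21 lower with dnTcf4, 14 higher and 3 lower for the difference, and 10 higher and 11 lower between the uninduced lines. The shares of all genes were 15.5% and 16.4%, 15.1% and 18.7%, 7.39% and 7.44%, and 16.6% and 20.3%. Same-numbered arrays deviated together at correlations of -0.078 to 0.038, and differently numbered ones at -0.049 to 0.077. No shared effect of the number was seen, but with 3 arrays a group these values cannot show whether the samples were paired. A fit of only the arrays compared gives no value for the difference. Dim probe sets, such as those of EIF3C and EIF1B-AS1, limit what these arrays can show.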
